A study of Mus musculus with 8 samples.

Results

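The 39 genes described here belong to the last stage of keratinocyte differentiation, in which living epidermal cells turn into the flattened, cross-linked corneocytes of the skin surface. They were chosen by gene symbol alone: every gene whose symbol begins with Lce1 or Lce2, together with the filaggrin-type genes (Flg, Flg2, Hrnr, Rptn, Crnn), the envelope precursors (Lor, Ivl, Evpl, Ppl, Cnfn, Crct1), the transglutaminases Tgm1, Tgm3 and Tgm5, the proteases and inhibitors Casp14, Asprv1, Klk5, Klk7, Klk8, Spink5 and Cst6, and Cdsn, Krtdap, Dmkn, Sbsn, Calm4, Calml3 and Sfn. They are 39 of the 22180 genes measured by a probe set that names 1 gene. No Lce2 symbol stood on such a probe set, and Lce1c and Lce1d were named only on probe sets that list several genes, so these were left out.

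Transcripts of newborn mouse epidermis (strain C57BL/6J, postnatal day 0) were measured on 8 arrays of total RNA. In the 4 K320E-TwinkleEpi arrays (K320E below), a mutant form of Twinkle, the helicase of mitochondrial DNA, is expressed. That expression depends on the promoter of keratin 14, the keratin of basal keratinocytes. The 4 Control arrays carry the genotype label R26-K320E-TwinkleloxP/+, which names the K320E-Twinkle allele as well. Their values for the Twinkle gene, given below, were lower than those of K320E. The comparison asks how the epidermal transcripts of the 2 genotypes differ at birth.

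The cornified envelope replaces the plasma membrane of a dying keratinocyte. Involucrin, envoplakin and periplakin form a scaffold beneath the membrane, loricrin and the small LCE proteins are laid onto it, and transglutaminases join them by covalent bonds. Inside the cell, filaggrin is cut from a large precursor, packs the keratin filaments, and is then broken down into free amino acids that hold water. At the surface, corneodesmosin holds the corneocytes together until kallikrein proteases, kept in check by inhibitors such as the product of Spink5, cut it. Many of these genes lie side by side in the epidermal differentiation complex on mouse chromosome 3, and a newborn mouse already carries a working barrier.

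The deposited values are log2 intensities, and a log2 fold change below is K320E minus Control. Array medians lay between 6.06 and 6.11, and correlations between arrays ran from 0.987 to 0.994 within groups and from 0.976 to 0.992 between them. With 4 arrays in each genotype, their number sets the precision. Keratinocyte transcripts were high on every array: Krt14 read 12.48 to 12.72 in K320E and 12.18 to 12.40 in Control, Krt1 read 12.74 to 12.92 in K320E and 12.75 to 12.76 in Control, and Krt10 read 12.89 to 12.95 in K320E and 12.88 to 12.99 in Control. Krt5 was named only on a probe set of several genes and was left out. Twnk, the gene of Twinkle, read 8.91 to 9.28 in K320E and 6.55 to 6.95 in Control. The sex-linked transcripts of Controls 2 and 3 were unusual. Xist, a transcript of the inactive X chromosome, read 9.27 in Control 2 beside a mean of 9.05 over 3 Y-linked genes, while in Control 3 both were low, at 6.17 for Xist and 4.75 for the Y-linked genes. K320E 3 also differed from its group, with Xist at 6.84 and the Y-linked mean at 8.64. In K320E 1, 2 and 4, Xist read 12.07 to 12.15 and the Y-linked mean 4.75 to 4.82. In Controls 1 and 4, Xist read 12.26 and 12.27 and the Y-linked mean 4.82 and 4.80. No label says whether each array holds the RNA of a different animal. The p-values therefore rest on the spread between these 8 arrays, and how much of that spread is technical is not known.

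None of the 39 genes passed the test between genotypes (limma, adjusted over all genes, threshold 0.05), where 195 of the 22180 genes, 0.879%, passed. At such a background a count of 0 among 39 is not in itself a result about these genes. What the arrays do give is an interval for each fold change in signal. It is taken for 1 gene at a time, under this 1 fit, from the spread between these arrays. The 95% interval of the fold change lay within 1.5-fold in either direction for 27 of the 39 genes, against 91.7% of all genes, and within 2-fold for 35, against 98.5% of all genes. The 4 genes whose intervals reached beyond 2-fold were Rptn, Crnn, Cnfn and Lce1k. The fold changes of 26 of the 39 were positive, against 49.8% of all genes, and their median was 0.078, against -0.00052 over all genes.

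Without adjustment, 10 of the 39 genes had a limma p under 0.05, 8 of them higher in K320E and 2 lower, beside a background of 14.8% of all genes (8.77% higher and 6.06% lower). In 8 of the 39 the values of the 2 genotypes did not overlap, beside 9.25% of all genes. The 4 K320E values all lay above the 4 Control values for Rptn, Cnfn, Tgm1, Klk7, Klk8 and Sfn (6 genes, background 5.5%), and all lay below them for Flg2 and Crnn (2 genes, background 3.75%). In bulk epidermis, a change in the share of upper-layer cells and a change in RNA per cell cannot be told apart.

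**Figure D1:**
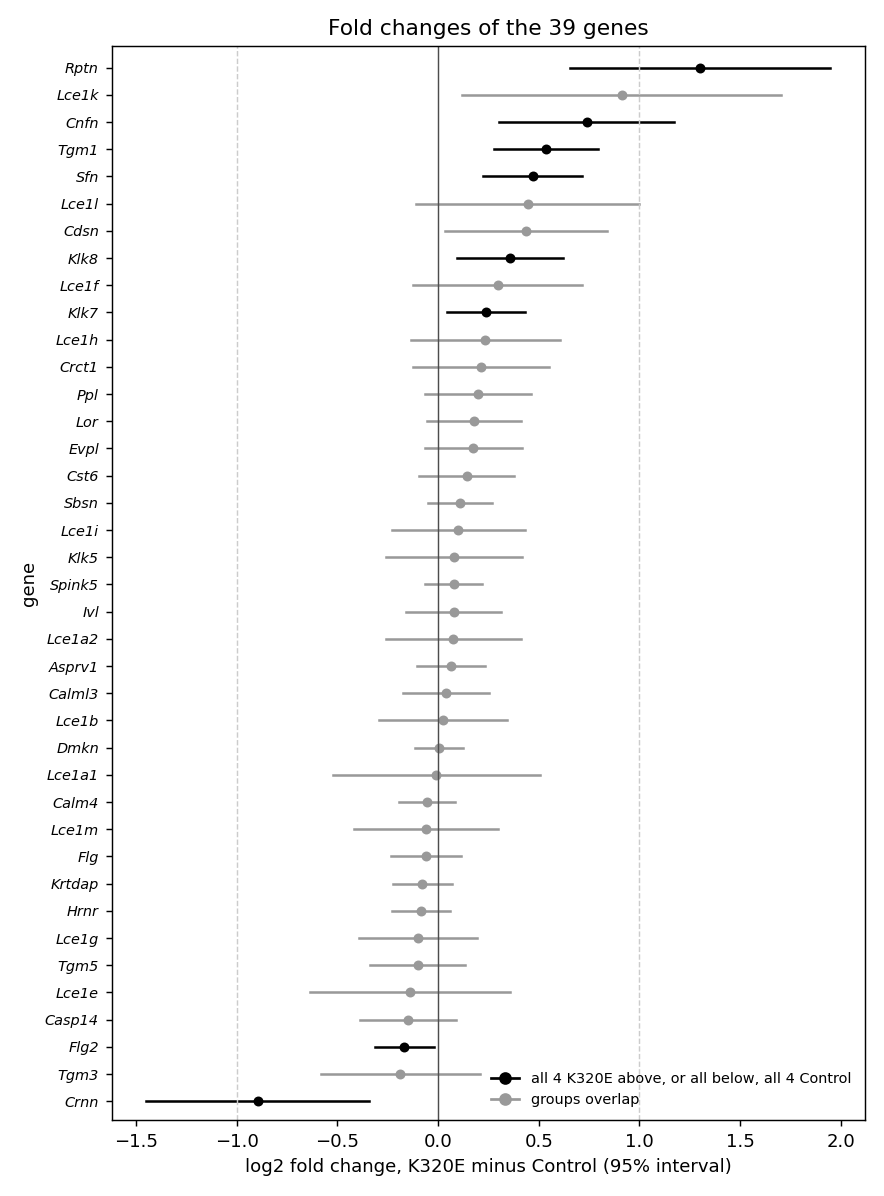
Log2 fold change (K320E minus Control, x axis) of each of the 39 genes (y axis) with its 95% interval from limma, 4 arrays a group. Black points mark the 8 genes whose 2 groups of arrays do not overlap, the dashed lines mark a 2-fold difference, and Rptn (1.30) and Crnn (-0.90) stand at the 2 ends.

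The 5 S100-fused genes held both the highest and the lowest fold change of the 39, and 0 of 5 passed the test. Flg encodes profilaggrin, the precursor of filaggrin. Its values were 12.24, 12.03, 11.94 and 11.96 in K320E arrays 1 to 4, against 12.03, 12.16, 12.07 and 12.16 in Control arrays 1 to 4. K320E 1 was the highest of the 8 arrays, the other 3 K320E arrays were at or below the lowest Control, and the groups overlapped. Flg averaged 12.04 ± 0.14 in K320E and 12.10 ± 0.064 in Control (SD, n = 4 each), with a fold change on the log2 scale of -0.059 (SE 0.076, 95% interval -0.23 to 0.11; limma adjusted p = 0.788).

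Rptn encodes repetin, an S100-fused envelope precursor that lies next to hornerin on the chromosome. It read 11.50, 11.29, 11.51 and 11.73 in K320E, against 10.53, 10.57, 10.54 and 9.19 in Control. All 4 K320E arrays lay above all 4 Control arrays, and Control 4 stood more than 1 log2 unit below the other 3 Controls. Rptn averaged 11.51 ± 0.18 in K320E and 10.21 ± 0.68 in Control (SD, n = 4 each). Its log2 fold change was 1.30 (SE 0.29, 95% interval 0.65 to 1.95; limma adjusted p = 0.0829), the highest among the 39 genes, and did not pass the test. With Control 4 left out the log2 fold change was 0.96, smaller than with all arrays, and limma called it (adjusted p = 0.00763), beside a background of 0.532% in that fit. It was also called when the lowest 33.3% of genes by level were left out (adjusted p = 0.0367, background 1.95%).

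Crnn encodes cornulin, a protein of stratified squamous epithelia. Its values were 8.58, 8.46, 9.02 and 8.68 in K320E, against 9.97, 9.16, 9.07 and 10.14 in Control. Every K320E array was below every Control, with K320E 3 close to Controls 2 and 3, while Controls 1 and 4 stood apart at the top. Crnn averaged 8.69 ± 0.24 in K320E and 9.58 ± 0.55 in Control (SD, n = 4 each), and its log2 fold change of -0.90 (SE 0.25, 95% interval -1.45 to -0.34; limma adjusted p = 0.143) was the lowest among the 39 genes. Flg2, a filaggrin-like gene, lay lower in all 4 K320E arrays too (11.50 to 11.70 in K320E and 11.75 to 11.90 in Control; log2 fold change -0.17 (SE 0.065, 95% interval -0.31 to -0.02; limma adjusted p = 0.273)). Hrnr, the hornerin gene, read 12.12 to 12.25 in K320E and 12.16 to 12.38 in Control, with a log2 fold change of -0.086.

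These genes stand in the order Crnn, Flg2, Flg, Hrnr, Rptn along chromosome 3, so the lowest and the highest fold change of the 39 fall at the 2 ends of 1 short row, with 3 genes of small differences between them. The 250 bases before the annotated starts of Rptn, Crnn and Flg are printed because these 3 promoters hold the same pair of motifs while their transcripts gave a positive, a negative and a near-zero fold change. The sequences are RefSeq's (GRCm38.p6, plus strand): chr3:93393449-93393698 for Rptn, chr3:93144539-93144788 for Crnn and chr3:93273296-93273545 for Flg. Capitals mark TGANTCA, the letters bound by AP-1 factors, which reads the same on both strands, and TATAAA, the TATA box, searched on both strands; the 2 do not overlap in any of the 3.
Rptn: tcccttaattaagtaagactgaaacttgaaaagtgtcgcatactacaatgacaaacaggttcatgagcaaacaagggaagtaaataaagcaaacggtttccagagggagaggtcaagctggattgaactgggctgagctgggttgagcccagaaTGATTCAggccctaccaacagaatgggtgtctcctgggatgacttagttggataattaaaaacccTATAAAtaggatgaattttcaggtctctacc
Crnn: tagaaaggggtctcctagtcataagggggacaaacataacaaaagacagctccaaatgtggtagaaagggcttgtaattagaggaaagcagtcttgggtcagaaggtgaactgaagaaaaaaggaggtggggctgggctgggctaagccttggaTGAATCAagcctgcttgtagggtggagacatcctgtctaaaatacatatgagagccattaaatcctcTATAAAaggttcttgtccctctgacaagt
Flg: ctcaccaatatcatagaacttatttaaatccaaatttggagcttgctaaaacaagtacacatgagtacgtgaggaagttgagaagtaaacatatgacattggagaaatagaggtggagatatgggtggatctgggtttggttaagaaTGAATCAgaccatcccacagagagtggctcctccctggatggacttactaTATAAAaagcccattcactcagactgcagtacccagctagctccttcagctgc
TGANTCA began at -96 in both Rptn and Crnn and at -103 in Flg, counting from the last base before the start as -1. TATAAA began at -31 in Rptn, at -29 in Crnn and at -53 in Flg. In Flg2 the search found TGANTCA alone, at -69, and in Hrnr TATAAA alone, at -31. Of the 39 genes, 32 have a promoter in the table (not Evpl, Ppl, Crct1, Lce1f, Spink5, Cst6 and Calml3). Of these 32, 9 held TGANTCA (28.1%, against 7.82% of all 27025 genes with a promoter), 9 held TATAAA (28.1%, against 14.3%) and 6 held both (18.8%, against 1.45%), namely Crnn, Flg, Ivl, Krtdap, Lor and Rptn. A gene was counted if any of its promoters matched. Of the 10 LCE1 genes with a promoter, 0 held TGANTCA and 1, Lce1m, held TATAAA. These matches describe letters in a window, and were not tested against the fold changes.

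The 6 envelope precursors all had positive fold changes, from 0.078 to 0.74, and 0 of 6 passed the test. Lor encodes loricrin, the main protein of the mature envelope. It read 11.31, 11.20, 10.92 and 10.91 in K320E, against 10.78, 11.04, 10.96 and 10.84 in Control. K320E 1 and 2 were above every Control, K320E 3 and 4 lay among the Controls, and the log2 fold change was 0.18 (SE 0.10, 95% interval -0.056 to 0.41; limma adjusted p = 0.485).

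Ivl encodes involucrin, the scaffold protein laid down first. Its values of 11.35, 11.62, 11.62 and 11.47 in K320E stood against 11.19, 11.65, 11.44 and 11.48 in Control. Control 1 was the lowest and Control 2 the highest of all 8 arrays, so the Controls spanned the whole K320E range. The log2 fold change was 0.078 (SE 0.10, 95% interval -0.16 to 0.31; limma adjusted p = 0.797).

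Cnfn, the gene of the envelope protein cornifelin, differed most in this group. Its values were 12.63, 11.95, 12.06 and 11.85 in K320E, against 11.45, 11.54, 11.61 and 10.93 in Control. All 4 K320E arrays were above all 4 Controls, K320E 1 by the widest margin, and Control 4 was the lowest. Cnfn averaged 12.12 ± 0.35 in K320E and 11.38 ± 0.31 in Control (SD, n = 4 each), with a fold change on the log2 scale of 0.74 (SE 0.19, 95% interval 0.30 to 1.17; limma adjusted p = 0.127). The plakin genes Evpl and Ppl and the cysteine-rich gene Crct1 had log2 fold changes of 0.18, 0.20 and 0.21, each with overlapping groups. Over the fits that left out 1 array these ran from 0.079 to 0.22 for Evpl, from 0.10 to 0.28 for Ppl and from 0.094 to 0.30 for Crct1.

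**Figure D2:**
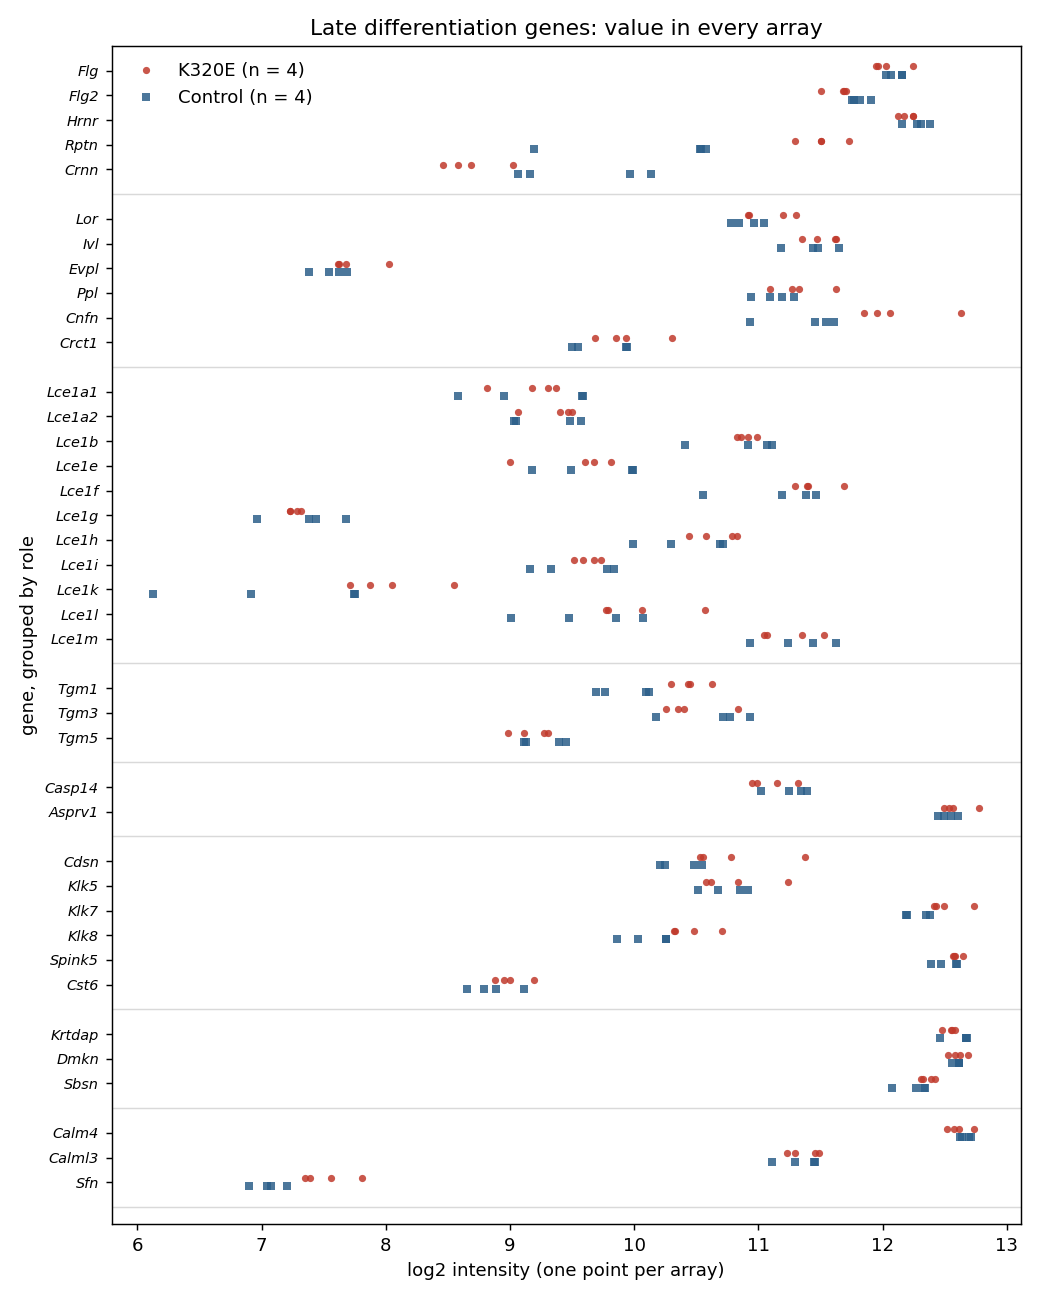
Log2 intensity (x axis) of the 39 genes (y axis, grouped by role) on every array, with K320E as red circles and Control as blue squares, 4 each. For most genes the 2 sets of points cover each other, while Rptn, Cnfn, Tgm1, Klk7, Klk8 and Sfn have all circles to the right and Flg2 and Crnn all circles to the left of the squares.

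Of the 11 LCE1 genes measured, 0 passed the test. Their log2 fold changes ran from -0.14 for Lce1e to 0.91 for Lce1k with a median of 0.077, 7 positive and 4 negative. In 0 of 11 did the groups separate, beside 9.25% of all genes, so that count is not in itself a result about LCE1. LCE1 proteins are small, cysteine- and glycine-rich envelope proteins added late in cornification. Lce1e read 9.00, 9.81, 9.60 and 9.67 in K320E, against 9.49, 9.99, 9.98 and 9.18 in Control. K320E 1 was the lowest array, Controls 2 and 3 were the highest, and the log2 fold change was -0.14 (SE 0.22, 95% interval -0.64 to 0.36; limma adjusted p = 0.837).

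Lce1k read 8.55, 8.05, 7.71 and 7.87 in K320E, against 6.91, 7.74, 7.75 and 6.12 in Control. Controls 2 and 3 lay just above the lowest K320E array, whereas Controls 1 and 4 lay below all of them, Control 4 by over 1 log2 unit. The log2 fold change of 0.91 (SE 0.35, 95% interval 0.12 to 1.70; limma adjusted p = 0.269) did not pass the test, and was 0.58 without Control 4. Besides, 2 probe sets list Lce1k together with a neighbour: the one shared with Lce1c had a log2 fold change of -0.0015 (SE 0.14) and the one shared with Lce1d 0.37 (SE 0.16; limma adjusted p = 0.38 over all probe sets). LCE1 genes are close paralogs, so a probe set can read more than the gene it names, and values of single LCE1 genes are uncertain.

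The order of genes on the chromosome places the LCE1 family on both sides of the LCE3 genes, late envelope genes that injured human skin raises. Lce1l stood directly before Lce3a, and Crct1 and Lce1m followed Lce3f. Of the 6 LCE3 genes, 4 rose in K320E and 0 fell. These were Lce3c, Lce3e, Lce3f and Lce3d, from a log2 fold change of 1.15 for Lce3c (limma adjusted p = 0.021) to 2.22 for Lce3d (adjusted p = 0.00206), and Lce3b had the lowest value of the family at 0.65. The mean over the 11 LCE1 genes was 9.76, 9.87, 9.69 and 9.69 in K320E, against 9.41, 9.90, 9.90 and 9.15 in Control. The mean over the 6 LCE3 genes was 8.89, 8.38, 9.06 and 8.98 in K320E, against 7.49, 7.53, 7.16 and 6.98 in Control. The LCE1 means thus overlapped and the LCE3 means did not. The number of LCE3 genes called higher was 3 to 5 when 1 array was left out, and 0 with the hair structure level as a covariate.

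Between Lor and Ivl on the same chromosome stand the small proline-rich genes. The proteins of this family are also cross-linked into the envelope, but Sprr2j-ps has the symbol of a pseudogene. Of the 12 genes measured, 6 rose (Sprr1a, Sprr1b, Sprr2e, Sprr2g, Sprr2h and Sprr2j-ps) and 0 fell. Log2 fold changes over the family ran from -0.31 for Sprr4 to 2.54 for Sprr2j-ps. That count rested on single arrays: it was 1 without K320E 3 or without Control 1, 3 without K320E 1 or K320E 4, and 4 to 6 without any other array, and it was 0 with the hair structure level as a covariate. Lor and Ivl, on either side of them, had log2 fold changes of 0.18 and 0.078. The difference between the families was not tested, because the lists were chosen with earlier results of these data known.

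**Figure D3:**
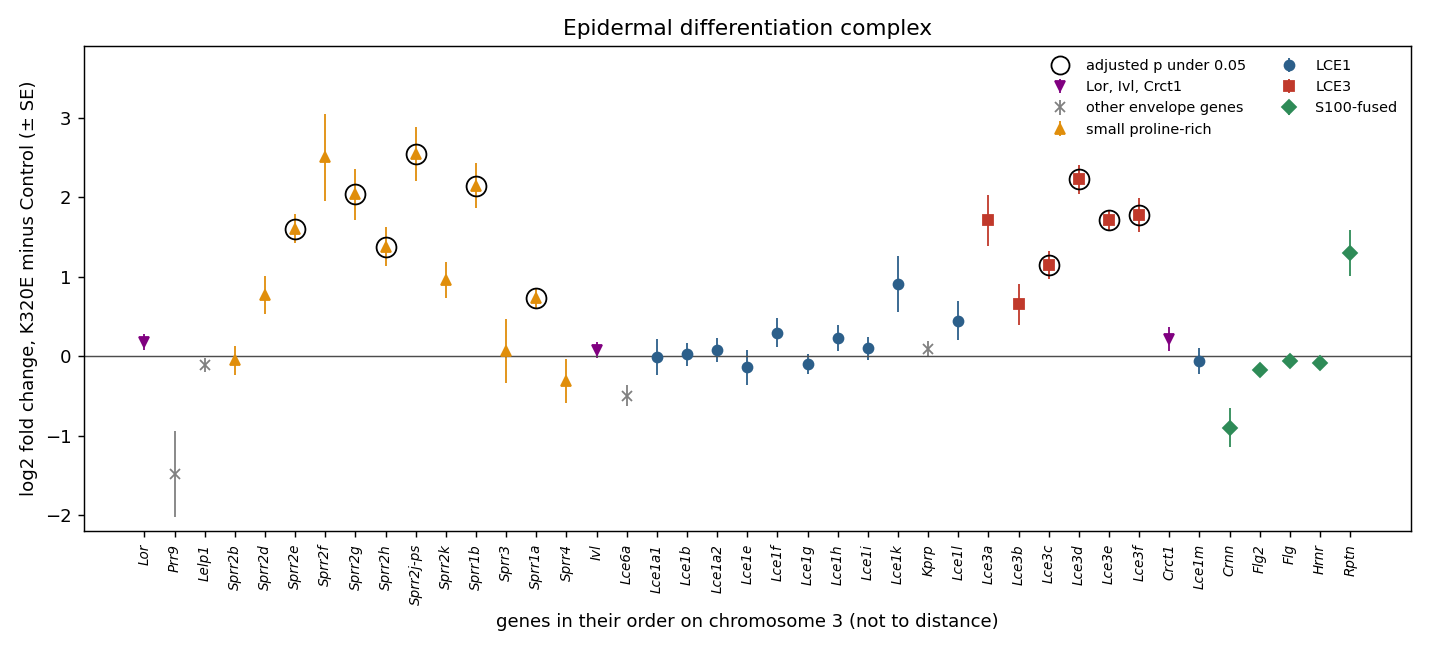
Log2 fold change (K320E minus Control) ± SE of 41 genes in their order along the epidermal differentiation complex on chromosome 3, from Lor to Rptn, with distances not to scale. Rings mark adjusted p under 0.05: they fall on small proline-rich genes (orange triangles) and LCE3 genes (red squares) and on none of the LCE1 genes (blue circles) or S100-fused genes (green diamonds).

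The 3 transglutaminases had fold changes of both signs, and 0 of 3 passed. Tgm1 encodes the membrane-anchored enzyme that cross-links the envelope, and loss of the human gene causes lamellar ichthyosis. It read 10.62, 10.45, 10.43 and 10.29 in K320E, against 9.76, 10.12, 10.09 and 9.69 in Control. All 4 K320E arrays were above all 4 Controls, and Controls 1 and 4 were the lowest. Tgm1 averaged 10.45 ± 0.14 in K320E and 9.91 ± 0.22 in Control (SD, n = 4 each), with a fold change on the log2 scale of 0.54 (SE 0.11, 95% interval 0.28 to 0.79; limma adjusted p = 0.0745) or 1.45-fold, the smallest adjusted p among the 39 genes. It was called in 3 of 19 alternatives: with an intensity trend and a robust prior (adjusted p = 0.0449, background 1.06%), with the lowest 33.3% of genes left out, and with Controls 2 and 3 left out together.

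Tgm3 encodes a soluble transglutaminase of epidermis and hair follicle that is activated by cleavage. Its values were 10.84, 10.40, 10.35 and 10.26 in K320E, against 10.71, 10.93, 10.77 and 10.17 in Control. Control 4 was the lowest array, the other 3 Controls lay above 3 of the K320E arrays, and the log2 fold change was -0.19 (SE 0.18, 95% interval -0.58 to 0.21; limma adjusted p = 0.698). Tgm5, whose human counterpart is mutated in acral peeling skin, had a log2 fold change of -0.10.

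The 2 proteases that process profilaggrin had narrow intervals. Casp14 encodes a caspase of cornifying cells. It read 11.32, 11.15, 10.99 and 10.95 in K320E, against 11.02, 11.39, 11.24 and 11.34 in Control. K320E 3 and 4 lay just below every Control, K320E 1 and 2 lay among them, and the log2 fold change was -0.15 (SE 0.11, 95% interval -0.39 to 0.092; limma adjusted p = 0.589). Asprv1 encodes an aspartic protease of the stratum granulosum. It read 12.78, 12.57, 12.49 and 12.53 in K320E, against 12.44, 12.55, 12.61 and 12.49 in Control, with K320E 1 alone above all other arrays. Its log2 fold change was 0.066 (SE 0.075, 95% interval -0.10 to 0.23; limma adjusted p = 0.757).

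The 6 genes of corneocyte adhesion and shedding all had positive fold changes, from 0.078 to 0.44, and 0 of 6 passed the test. Cdsn encodes corneodesmosin, the adhesive glycoprotein of the corneodesmosome. Its values of 11.37, 10.78, 10.53 and 10.55 in K320E stood against 10.25, 10.48, 10.54 and 10.20 in Control. K320E 1 was far above the rest, and K320E 3 lay just below Control 3, so the groups overlapped by that 1 pair. The log2 fold change was 0.44 (SE 0.18, 95% interval 0.035 to 0.84; limma adjusted p = 0.296), and 0.25 without K320E 1.

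Klk7 and Klk8 encode kallikrein serine proteases that take part in shedding. Klk7 read 12.74, 12.50, 12.43 and 12.41 in K320E, against 12.20, 12.38, 12.35 and 12.18 in Control. Klk8 read 10.71, 10.48, 10.32 and 10.33 in K320E, against 9.86, 10.26, 10.25 and 10.03 in Control. In both, K320E 1 was the highest array and every K320E array exceeded every Control. The log2 fold changes were 0.24 (SE 0.086, 95% interval 0.046 to 0.43; limma adjusted p = 0.236) for Klk7 and 0.36 (SE 0.12, 95% interval 0.096 to 0.62; limma adjusted p = 0.199) for Klk8. Klk5, the kallikrein that starts the cascade, had a log2 fold change of 0.08 with overlapping groups.

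Spink5 encodes LEKTI, the inhibitor of these kallikreins that is lost in human Netherton syndrome. It read 12.58, 12.57, 12.58 and 12.64 in K320E, against 12.39, 12.59, 12.60 and 12.47 in Control. The K320E arrays were close together, Controls 1 and 4 lay below them, and Controls 2 and 3 lay among them. The log2 fold change was 0.078 (SE 0.062, 95% interval -0.062 to 0.22; limma adjusted p = 0.637), so a difference of 1.5-fold lies outside the interval. Cst6, the gene of the cysteine protease inhibitor cystatin E/M, had a log2 fold change of 0.14.

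Beside these 3, 7 kallikreins outside the 39 were read from the chosen lists described below (Klk6 and Klk9 to Klk14). All 10 of these had positive fold changes (49.8% of all genes did), with a median of 0.28. Other kallikrein genes were not read, so these values do not describe the whole family. Of the 10, 1 rose past the threshold. This was Klk6, a secreted kallikrein, which read 9.08, 8.45, 8.83 and 8.69 in K320E, against 7.04, 7.68, 7.72 and 7.23 in Control. All 4 K320E arrays lay above all 4 Controls and the log2 fold change was 1.34 (SE 0.18, 95% interval 0.94 to 1.74; limma adjusted p = 0.0132). The call was lost without K320E 3 (limma adjusted p = 0.0563), with the replicate number as a block (adjusted p = 0.0592) and with the hair structure level as a covariate (adjusted p = 0.206), and held without any other array.

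The secreted products of differentiating keratinocytes, Krtdap, Dmkn and Sbsn, had some of the narrowest intervals, and 0 of 3 passed. Krtdap, the gene of keratinocyte differentiation-associated protein, read 12.55, 12.58, 12.48 and 12.56 in K320E, against 12.46, 12.68, 12.67 and 12.67 in Control. Control 1 was the lowest array and the other 3 Controls were above every K320E array. The log2 fold change was -0.08 (SE 0.065, 95% interval -0.23 to 0.067; limma adjusted p = 0.647). Sbsn, the suprabasin gene, read 12.39, 12.43, 12.32 and 12.31 in K320E, against 12.08, 12.34, 12.33 and 12.26 in Control, again with Control 1 lowest. Its log2 fold change was 0.11 (SE 0.071, 95% interval -0.052 to 0.27; limma adjusted p = 0.546), and that of Dmkn, the dermokine gene, was 0.0041.

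Among the calcium-binding and 14-3-3 genes, Calm4 encodes a skin calmodulin-like protein. It read 12.74, 12.62, 12.57 and 12.52 in K320E, against 12.64, 12.71, 12.69 and 12.63 in Control. The groups overlapped, with the highest and the lowest array both in K320E, and the log2 fold change was -0.056 (SE 0.061, 95% interval -0.19 to 0.082; limma adjusted p = 0.749). Calml3, a calmodulin-like gene of epithelia, had a log2 fold change of 0.038. Sfn encodes 14-3-3 sigma, whose mutation in repeated-epilation mice disturbs epidermal differentiation. It read 7.81, 7.35, 7.56 and 7.39 in K320E, against 7.05, 7.08, 7.21 and 6.90 in Control. All 4 K320E arrays were above all 4 Controls, with K320E 1 the highest. Sfn averaged 7.53 ± 0.21 in K320E and 7.06 ± 0.13 in Control (SD, n = 4 each), with a fold change on the log2 scale of 0.47 (SE 0.11, 95% interval 0.23 to 0.72; limma adjusted p = 0.0945).

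The precision differed with the level of the probe set. For the 9 genes with a mean of at least 12 over the 8 arrays (Flg, Hrnr, Asprv1, Klk7, Spink5, Krtdap, Dmkn, Sbsn and Calm4), the median SD within groups was 0.082 and the largest absolute log2 fold change 0.24. For the other 30 genes the median SD was 0.24 and the largest absolute fold change 1.30. Over all genes the median SD was 0.12. The highest value in the deposited table was 13.1, and 0.383% of all genes had a mean of at least 12. Whether the array signal still follows the amount of RNA at that end of the scale was not tested.

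Genes that act on the same program but are not among the 39 were read from 6 lists with 49 measured genes. Klk6, above, was the 1 that rose, 0 fell, and 40 of the 49 had positive fold changes with a median of 0.13. All 12 transcription factors of late differentiation had positive fold changes from 0.057 to 0.38, and 0 of 12 passed. The highest was Klf4, a factor needed for the skin barrier in mice, which averaged 10.01 ± 0.24 in K320E and 9.62 ± 0.18 in Control (SD, n = 4 each), with a fold change on the log2 scale of 0.38 (SE 0.13, 95% interval 0.092 to 0.67; limma adjusted p = 0.214). The lowest value over the 49 was that of Prr9, a proline-rich gene next to Lor. It read 7.13, 7.33, 6.64 and 7.87 in K320E, against 8.84, 8.02, 7.64 and 10.40 in Control. Control 4 was far above the other arrays, the groups overlapped, and the log2 fold change was -1.48 (SE 0.54, 95% interval -2.70 to -0.27; limma adjusted p = 0.242). Of the 3 measured genes of filaggrin breakdown and deimination, Blmh averaged 11.93 ± 0.032 in K320E and 11.83 ± 0.13 in Control (SD, n = 4 each), while Hal and Padi3 had log2 fold changes of -0.21 and -0.51, with 0 of 3 past the threshold. Prr9 and Padi3 were highest in Controls 4 and 1, as were the hair structure means given below, while Blmh and Hal were not. A link to the hair structure level was not tested for these genes.

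Other keratinocyte programs measured on the same arrays gave a wide spread of values. Among 4 suprabasal keratins 0 passed, with log2 fold changes from -0.17 for Krt2 to 0.26 for Krt77. Krt2 averaged 5.73 in K320E and 5.90 in Control, below the array medians of 6.06 to 6.11. Whether a change in Krt2 could be read at that level was not tested. Among 4 stress keratins, which injured skin raises, 0 passed as well, although Krt6a had a log2 fold change of 1.80 (SE 0.37, 95% interval 0.98 to 2.63; limma adjusted p = 0.0651), and Krt17 had the lowest at 0.20.

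Within a group, the 39 genes tended to be high or low on the same arrays. Control 1 or Control 4 was the lowest Control in 38 of the 39 genes, against 52.7% of all genes, and Control 2 or 3 was the highest in 37, against 47.8%. Both Controls 2 and 3 lay above both Controls 1 and 4 in 32 of the 39 genes, against 19.7% of all genes, and in 11 of 11 LCE1 genes. Crnn went the other way, with Controls 1 and 4 at the top. In K320E, array 1 was the highest of its group in 25 of the 39 genes (64.1%, against 30.8% of all genes). These are descriptions of 8 arrays, made after their values were seen.

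Marker lists of other structures and cell types also differed between the arrays. The mean over 17 hair structure genes was 7.17, 6.97, 6.83 and 7.26 in K320E, against 8.07, 7.28, 7.46 and 8.69 in Control. It was lower in all 4 K320E arrays and highest in Controls 4 and 1, the Controls with the lower values of most of the 39 genes. Of the 17, 16 had negative fold changes, 0 passed the test, and the 2 of highest level were Tchh, the trichohyalin gene, at 9.23 ± 0.30 in K320E and 10.54 ± 0.67 in Control (SD, n = 4 each), and Krt25, an inner root sheath keratin, at 9.03 ± 0.30 in K320E and 10.19 ± 0.78 in Control (SD, n = 4 each). The mean over 11 skeletal muscle genes was 7.30, 6.63, 7.72 and 6.65 in K320E, against 6.21, 6.99, 6.89 and 6.22 in Control, and that over 9 dermal fibroblast genes was 7.95, 8.09, 8.55 and 8.22 in K320E, against 7.80, 8.12, 8.32 and 7.63 in Control. Both were lower in Controls 1 and 4 than in Controls 2 and 3. Fold changes were positive for 11 of the 11 muscle and 8 of the 9 fibroblast genes, with 0 called in either list. The 2 muscle genes of highest level, Tnnt3 and Mylpf, were at 8.61 ± 0.95 in K320E and 7.58 ± 0.64 in Control (SD, n = 4 each) and at 8.43 ± 0.83 in K320E and 7.36 ± 0.78 in Control (SD, n = 4 each), and the 2 fibroblast genes of highest level, Dcn and Vim, at 10.94 ± 0.068 in K320E and 11.08 ± 0.24 in Control (SD, n = 4 each) and at 10.54 ± 0.23 in K320E and 10.40 ± 0.28 in Control (SD, n = 4 each).

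The mean over 8 Langerhans and dendritic cell genes was 6.38, 6.39, 6.32 and 6.36 in K320E, against 6.77, 6.68, 6.77 and 6.69 in Control, without overlap. All 8 fold changes were negative, and H2-Aa and H2-Ab1, genes of MHC class II, fell in K320E by 1.05 and 0.98 on the log2 scale (limma adjusted p = 0.00206 and 0.0129). The call of H2-Ab1 was lost without K320E 3 (adjusted p = 0.0506), and with the hair covariate both were lost. Cd207, the defining gene of Langerhans cells, averaged 5.58 in K320E and 5.65 in Control, below the array medians of 6.06 to 6.11. Its log2 fold change was -0.067, and whether a change could be read at that level was not tested. Epcam, the gene of highest level in the list, had a log2 fold change of -0.18. The mean over 6 T cell genes was 6.37, 6.86, 6.44 and 6.38 in K320E, against 6.82, 7.08, 6.75 and 7.01 in Control. Of these 6, 5 had negative fold changes, and Thy1 rose by 0.69 (adjusted p = 0.0495), a call that held in only 1 of the 8 fits without 1 array, that without Control 3. The mean over 10 keratinocyte genes lay between 11.16 and 11.36 in K320E and between 10.95 and 11.11 in Control, and 1 of the 10 was called, the desmoglein gene Dsg3, which rose by 0.89 (adjusted p = 0.0126, and 0.0506 without K320E 3). Of the remaining lists, sebocyte, melanocyte, neutrophil, mast cell and endothelium, 0 genes were called, and the neutrophil means, 5.65 to 5.71 in K320E and 5.40 to 5.63 in Control, did not overlap. The median log2 fold change of the 10 neutrophil genes was only 0.039, with 7 positive and the highest at 1.32. In 1 of these 10 did the groups separate, beside 9.25% of all genes. What part these structures and cells had in the values of the 39 genes was not tested beyond the fit below.

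With the hair structure mean as a covariate, which itself differed between the genotypes, 0 of the 39 genes passed and 17 had positive fold changes, with a median of -0.043. Rptn then had a log2 fold change of 0.66 (adjusted p = 0.529), Crnn -0.34 (adjusted p = 0.735), Lce1k 0.07, Cnfn 0.43 and Tgm1 0.28 (limma), and the whole table held 2 called genes. Hair level and genotype moved together, so their shares in a fold change cannot be told apart.

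Leaving out Controls 2 and 3, the Controls with unusual sex-linked transcripts, left 4 K320E arrays against Controls 1 and 4. The median of the 39 fold changes was then 0.23, 32 were positive, and in 20 the groups did not overlap, beside 24% of all genes in that smaller comparison. Crnn (log2 fold change -1.37, limma adjusted p = 0.0184) and Tgm1 (0.73, adjusted p = 0.0329) were called there, beside 0.834% of all genes. The size of the median thus depended on which Controls were kept: over the fits that left out 1 array it ran from 0.037 without Control 1 to 0.14 without Control 2.

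**Figure D4:**
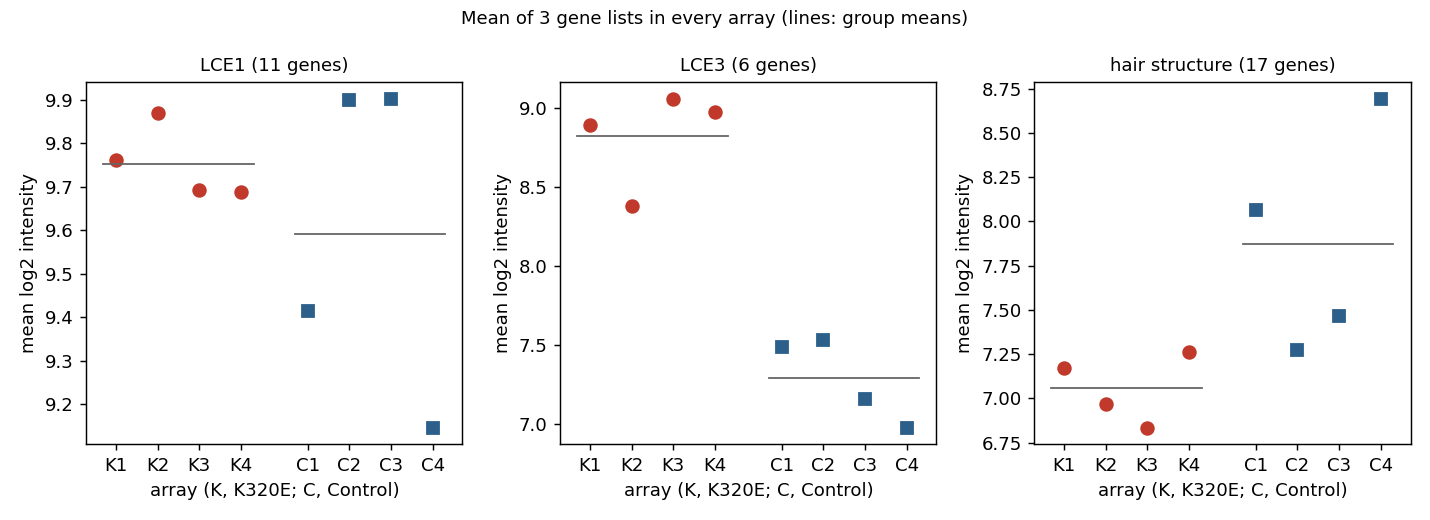
Mean log2 intensity (y axis, a separate scale in each panel) of 3 gene lists on each array, K320E arrays K1 to K4 as red circles and Control arrays C1 to C4 as blue squares, with lines at the group means. The LCE1 means of C1 and C4 lie below all other arrays and their hair structure means above all others, while the LCE3 means of all 4 K320E arrays lie above all 4 Controls.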

How the data were processed

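Per the labels' protocols, epidermal RNA came from the Maxwell 16 LEV simplyRNA kit and was amplified and biotin-labelled by means of Applause WT-Amp Plus ST. The authors deposited log2 intensities for 33793 probe sets. The sources used here give no method for their background correction, summary over probes or normalization. No further scaling was applied. GEO's platform annotation gave 1 gene symbol to 23521 probe sets, several to 1814, and left 8458 unnamed here. Names and gene order came from a RefSeq table of GRCm38.p6, which all 39 genes matched, and promoters from RefSeq on the same build. A gene was represented by the probe set of highest mean over the 8 arrays.

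Groups came from the genotype labels. K320E and Control were compared over all 22180 genes by limma (version 3.58.1, R 4.3.3; lmFit and eBayes with genotype as the term), with Benjamini-Hochberg adjustment over all of them and a threshold of 0.05. Intervals are limma's 95% moderated intervals. The fit was tested on simulated data. Figures were drawn with matplotlib 3.10.9.

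The 39 genes and all lists were chosen with earlier results of these data known, so the lists were given counts and medians and no test. Values in every array are printed for the highest and lowest fold change in each role group and for Flg, Lor, Ivl, Tgm1 and Casp14. From the pathway lists the called genes and the extremes are named, from the comparison lists the extremes, and from marker lists that differ between arrays the genes of highest level. The called genes of the comparison and marker lists, Cd207, Flg2, Klk7, Klk8, Klf4, Blmh, Hal, Padi3 and the remaining genes of the 39 that are named with a value were named after their values were seen. The alternatives were other normalizations, probe set rules, a filter on dim genes, variance models, array weights, the replicate number as a block, covariates for hair structure and Y-linked level, and leaving out arrays. Same-numbered arrays correlated at 0.0507, -0.0647, 0.082 and 0.137 in their deviations from the group means, so the numbers were not taken as pairs.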

Additional observations from a re-analysis of the deposited data

Results flagged for a closer look

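In 5 of the 78 groups of 4 arrays (39 genes in 2 genotypes), 1 array stood apart from the other 3 of its group by more than Dixon's critical value at 95%, applied to the gap to the nearest array over the range of the group. Chance flags about 1 in 20 groups, so 5 of 78 is close to what chance gives.

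Krtdap was lowest in Control 1 at 12.5, where the nearest Control read 12.7 (gap over range 0.976). Dmkn was lowest in the same array at 12.6, with the nearest Control at 12.6 and a gap over range of 0.915, so this difference was small on the log2 scale. Rptn was lowest in Control 4 at 9.19, while the nearest Control read 10.5 (0.964). Flg2 was lowest in K320E 4 at 11.5, where the nearest K320E array read 11.7 (0.87). Evpl, the envoplakin gene, was highest in K320E 1 at 8.02, where the nearest K320E array read 7.68 (0.836). The cause was not tested.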

How the results depend on the processing

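No gene of the 39 was called with array quality weights, quantile normalization or median centring, with each probe set tested singly or averaged by gene, or with the hair or Y-linked covariate. The count of called genes was 2 with the lowest 33.3% of genes left out (Rptn and Tgm1), 1 with an intensity trend and robust prior (Tgm1), and 2 with Controls 2 and 3 left out together (Crnn and Tgm1). It ran from 0 to 1 when 1 array was left out, the 1 being Rptn without Control 4. Without Controls 2 and 3 the median fold change was 0.233, against 0.078 with all arrays, and 20 genes had groups that did not overlap, against 8; the smaller number of Controls makes separation easier. In the other settings where it was counted, that number was 7 to 10. The background differed between these settings. Without 1 array, the groups did not overlap in 2761 to 3045 of all 22180 genes, against 2052 with all arrays. The median was negative in 1 setting, -0.043 with the hair covariate. Of the 39 genes, 16 changed sign in 1 to 6 of the 19 alternatives, none of them called. They were 10 of the LCE1 genes (all but Lce1k), Ivl, Tgm3, Tgm5, Klk5, Dmkn and Calml3, and the cause was not tested.

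With the replicate number as a block, 0 of the 39 genes were called and 114 genes in the whole table, against 195 without the block. The lowest adjusted p among the 39 was then 0.0947, for Cnfn (limma). Of the 4 K320E arrays, 2 correlated best with the Control of their own number. That count does not settle whether same-numbered samples share more than the number.

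With 4 arrays a group, intervals reached beyond 2-fold for 4 of the 39 genes, and the LCE1 probe sets cannot be assigned to single paralogs with certainty.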

Other observations

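Lce1m had a second probe set that names it alone. It read 11.50, 11.16, 11.09 and 11.02 in K320E, against 10.81, 11.13, 11.28 and 10.79 in Control. Its log2 fold change was 0.19 with an SE of 0.14 (limma adjusted p = 0.629 over all probe sets). The probe set used for the gene gave -0.059, so the 2 probe sets of Lce1m differed in sign, and neither passed the test. Both had their highest K320E value in array 1 and their lowest values among the Controls.

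The probe set shared by Lce1c and Lce1k read 11.69, 11.76, 11.58 and 11.61 in K320E, against 11.36, 11.90, 11.94 and 11.44 in Control. The one shared by Lce1d and Lce1k read 12.23, 11.94, 11.71 and 11.71 in K320E, against 11.44, 11.76, 11.77 and 11.15 in Control. In both, Controls 2 and 3 lay above Controls 1 and 4, as they did in the 11 LCE1 genes measured singly, and the groups overlapped.

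Outside the 39 genes but in the same layers, Lypd3, a surface protein of suprabasal keratinocytes, averaged 10.93 ± 0.39 in K320E and 10.08 ± 0.16 in Control (SD, n = 4 each), and its log2 fold change, 0.86 with an SE of 0.17 (limma adjusted p = 0.0658), missed the threshold although the groups did not overlap. Klk10, a kallikrein, averaged 9.80 ± 0.48 in K320E and 8.97 ± 0.11 in Control, a log2 fold change of 0.82 (limma adjusted p = 0.113), also without overlap. Lce6a, a late cornified envelope gene next to the LCE1 row, averaged 9.92 ± 0.17 in K320E and 10.41 ± 0.25 in Control, a log2 fold change of -0.50 (limma adjusted p = 0.129), with every K320E array below every Control. These 3 genes were picked after their values were seen.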
